A study of Mus musculus with 27 samples.

Results

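6 genes for antimicrobial and acute-phase proteins were followed in mouse bone-marrow-derived macrophages: Lyz1, Lyz2, Mpeg1, Saa3, Hp and Slpi. They were taken by symbol from a deposited table of 19069 named genes, in which each of the 6 has 1 row, and all 6 passed the filter on low values. C57BL/6 bone marrow cells from femur and tibia received no radiation, or 5 Gy of protons at FLASH (ultra-high) or standard dose rate. They were then grown for 7 days with CSF-1 (10 ng/ml), the growth factor that drives macrophage differentiation. The cultures were next held for 2 days in control medium (M0), with 100 ng/ml of the bacterial product LPS (M1) or with 20 ng/ml of the cytokine IL-4 (M2). All were kept in RPMI-1640 with 5% FBS, so the non-irradiated cultures shared the CSF-1 and serum with the irradiated ones. The 3 arms and 3 states made 9 groups of 3 RNA-seq libraries each. The labels do not say whether the 3 were separate cultures or animals, so the tests measure the spread between these libraries, which may be technical.

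Lysozyme cleaves the peptidoglycan of bacterial cell walls. Mice carry a pair of neighbouring genes for it: Lyz2, the macrophage lysozyme whose promoter drives the widely used LysM-Cre, and Lyz1, known best from Paneth cells of the gut. Mpeg1 encodes perforin-2, a pore-forming protein of macrophage phagosomes. Saa3 is the serum amyloid A made by macrophages and other cells outside the liver, and Hp encodes haptoglobin, which binds free haemoglobin and is also stored in granules of neutrophils. Slpi is a secreted inhibitor of neutrophil elastase and cathepsin G with antibacterial activity of its own. In macrophages, bacterial products reach such genes through Toll-like receptors, NF-kappaB and interferon signalling, and C/EBP factors drive many acute-phase genes, while IL-4 acts through STAT6.

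The lysozyme genes are shown first because reads of one can be assigned to the other. Over the 250 bases upstream of their start sites in RefSeq (GRCm38.p6), the aligned windows were 79.37% identical. The last 100 bases before the start, on the minus strand, are printed 5′ to 3′ with the mismatches in capitals, for Lyz1 at chr10:117292869-117292968 and Lyz2 at chr10:117282273-117282372.
Lyz1: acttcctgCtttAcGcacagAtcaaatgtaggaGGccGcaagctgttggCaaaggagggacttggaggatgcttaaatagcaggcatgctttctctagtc
Lyz2: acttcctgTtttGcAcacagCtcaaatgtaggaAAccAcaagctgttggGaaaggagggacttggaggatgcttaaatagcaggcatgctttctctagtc
They differed at 8 of these 100 bases, and the mismatch nearest the start lay at position -51, so the run from there to the start was the same in both genes. Their transcripts in GENCODE vM21, 1263 and 1316 bases long, were 91.95% identical over 1317 aligned columns. Of the 31-base words in the transcript, 34.2% of those of Lyz1 also occurred in Lyz2 and 32.8% of those of Lyz2 in Lyz1. The level of Lyz1 is therefore uncertain wherever reads could be split between the pair.

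The 130 bases upstream of Saa3 are shown because Saa3 was the gene of the 6 called higher with LPS without irradiation. They lie on the minus strand at chr7:46715677-46715806 (GRCm38.p6), with 2 motif matches in capitals.
Saa3: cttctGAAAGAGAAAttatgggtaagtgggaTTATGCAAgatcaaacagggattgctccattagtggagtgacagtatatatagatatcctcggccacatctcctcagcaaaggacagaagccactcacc
The first match, GAAAGAGAAA at -125 to -116, fits an interferon-stimulated response element written as GAAA, any 2 bases and GAAA, found in 2.98% of 32851 RefSeq windows of 250 bases searched on both strands. The second, TTATGCAA at -99 to -92, fits the C/EBP letters TTNNGCAA, found in 9.56% of the windows. C/EBP letters also lay at -209 in Lyz1 and at -241 in Slpi. The NF-kappaB letters, GGG, any 5 bases and CC, matched 3 times, overlapping, between -127 and -116 of Mpeg1, and occur in 45.8% of all windows. Neither the STAT letters TTCNNNGAA (7.02% of windows) nor the PU.1 letters GAGGAA (23.3%) lay in the 250 bases of the 5 genes with an entry, and Hp had none. Matches and their absence describe these letters only.

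The libraries held an estimated 20.68 to 25.84 M assigned reads, and 11577 to 12127 genes reached 1 CPM (a count scaled to a common library total). All 18 macrophage markers examined, such as Csf1r, Adgre1 and Cd68, were above 1 CPM in each group, with a summed level of 18296 to 34833 CPM without irradiation, 27471 to 44788 after FLASH and 26188 to 43087 after standard protons. The summed level of 17 p53 target genes, which respond to DNA damage, was 1140 to 1608 CPM in non-irradiated libraries, 1705 to 2697 after FLASH and 1771 to 2481 after standard protons, without overlap between non-irradiated and irradiated libraries. Each library was also placed on a scale of 28 LPS response genes and one of 23 IL-4 response genes, none of them among the 6. On each scale 0 is the mean of non-irradiated M0 and 1 the mean of non-irradiated M1 or M2. On these scales 22 libraries matched their labelled state and 5 did not, all of them replicate 1 of an irradiated group. The library labelled FLASH M0 replicate 1 stood at 0.697 on the IL-4 scale, and the one labelled FLASH M1 replicate 1 at -0.0884 on the LPS scale. The library labelled FLASH M2 replicate 1 stood at 1.011 on the LPS scale. The library labelled standard M1 replicate 1 stood at -0.0326 on the LPS and 0.775 on the IL-4 scale, and the one labelled standard M2 replicate 1 at 1.06 on the LPS scale. All 27 libraries stayed under their labels in the tests, and the changes of the 6 genes and the counts from lists are also given from the 22 others. The labels give replicates 1, 2 and 3 the codes 0423, 0507 and 0512 in every group, without saying what they mean, so the 5 libraries all carry the code 0423. A further set, replicates 2 and 3 of every group, leaves out that code altogether. The 9 non-irradiated libraries are in both sets, but the spread is shared over all groups, so their standard errors change too. The 5 were left out by their LPS and IL-4 response genes. For genes that follow these, the smaller spread among the 22 was partly set in advance. Their adjusted p values from the 22 are not an independent test, also without irradiation.

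**Figure D1:**
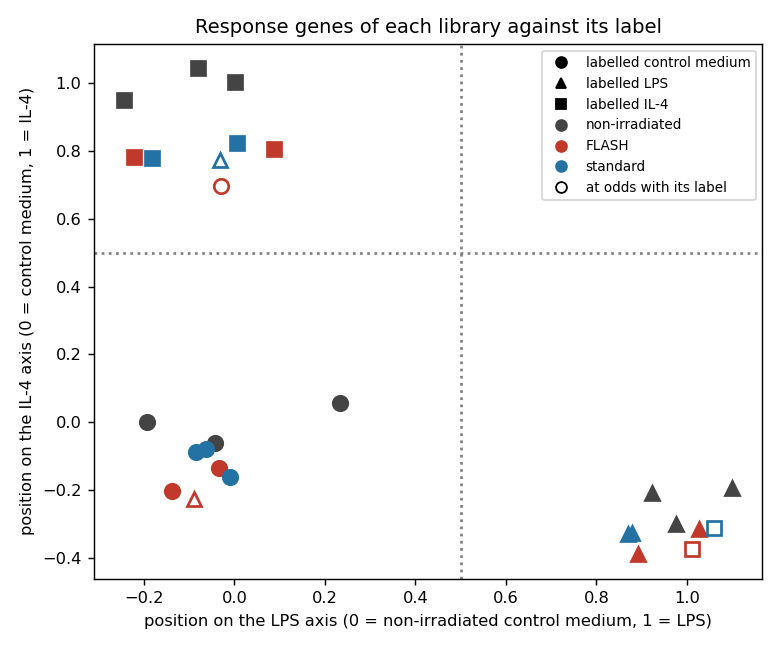
Position of each of the 27 libraries on the LPS response scale (horizontal, unitless) and the IL-4 response scale (vertical, unitless), where 0 is non-irradiated M0 and 1 is non-irradiated M1 or M2. Colours give the irradiation and shapes the labelled state, dotted lines mark 0.5, and the 5 libraries at odds are open: 2 labelled M2 stand near 1 on the LPS scale (1.011 and 1.06).

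Without irradiation Saa3 was at a low level in control medium and IL-4 and was the member called with LPS. Its level there was 35.5, 29.4 and 26.2 CPM in M0 (replicates 1, 2 and 3), 3651, 2756 and 4235 CPM in M1, and 36.9, 32 and 25.2 CPM in M2. Every M1 library was above every other non-irradiated library. The group means were 30.4 ± 4.70, 3547 ± 745 and 31.4 ± 5.87 CPM (SD, n = 3 each), and the M1 mean was 116.8 times that of M0. On the log2(CPM + 0.5) scale used for all changes here, Saa3 rose by 6.83 (SE 1.92, limma adjusted p = 0.02). In the 22 libraries the same change had an SE of 0.347 (limma adjusted p = 9.57e-10). Saa3 followed genes of the LPS scale (r 0.993 with Ccl5, Cfb and Irg1). That smaller spread was therefore partly set by the choice of libraries. With 27 libraries the call was lost on leaving out M0 replicate 1 (limma adjusted p = 0.0588), M0 replicate 3 (0.063), M1 replicate 2 (0.0569) or M1 replicate 3 (0.0563), with changes between 6.69 and 7.00.

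The other 5 members did not pass the test for LPS against control medium without irradiation. Lyz2, at 12260, 13303 and 9947 CPM in M0, was at 13253, 7278 and 17854 CPM in M1, and its groups overlapped (log2 change 0.03, limma adjusted p = 0.967). Mpeg1 was at 4809, 4893 and 5215 CPM in M0 and 4843, 4055 and 4400 CPM in M1 (log2 change -0.17, limma adjusted p = 0.824). Hp was at 15.3, 67.6 and 15.3 CPM in M0 and 27.4, 31 and 32.8 CPM in M1 (log2 change 0.26, limma adjusted p = 0.885), the second M0 library being above all of M1. Slpi was at 15.1, 24.1 and 4.26 CPM in M0 and 23.5, 30.1 and 23.1 CPM in M1 (log2 change 1.08, limma adjusted p = 0.508). Lyz1 was at 20.4, 13.3 and 9.22 CPM in M0 and 5.31, 8.15 and 14.6 CPM in M1 (log2 change -0.63, limma adjusted p = 0.213). So 1 of 6 members was called, where 17.4% of the 13297 genes tested were called in this comparison. In the 22 libraries it was again 1 of 6, beside 34.7% of all genes.

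**Figure D2:**
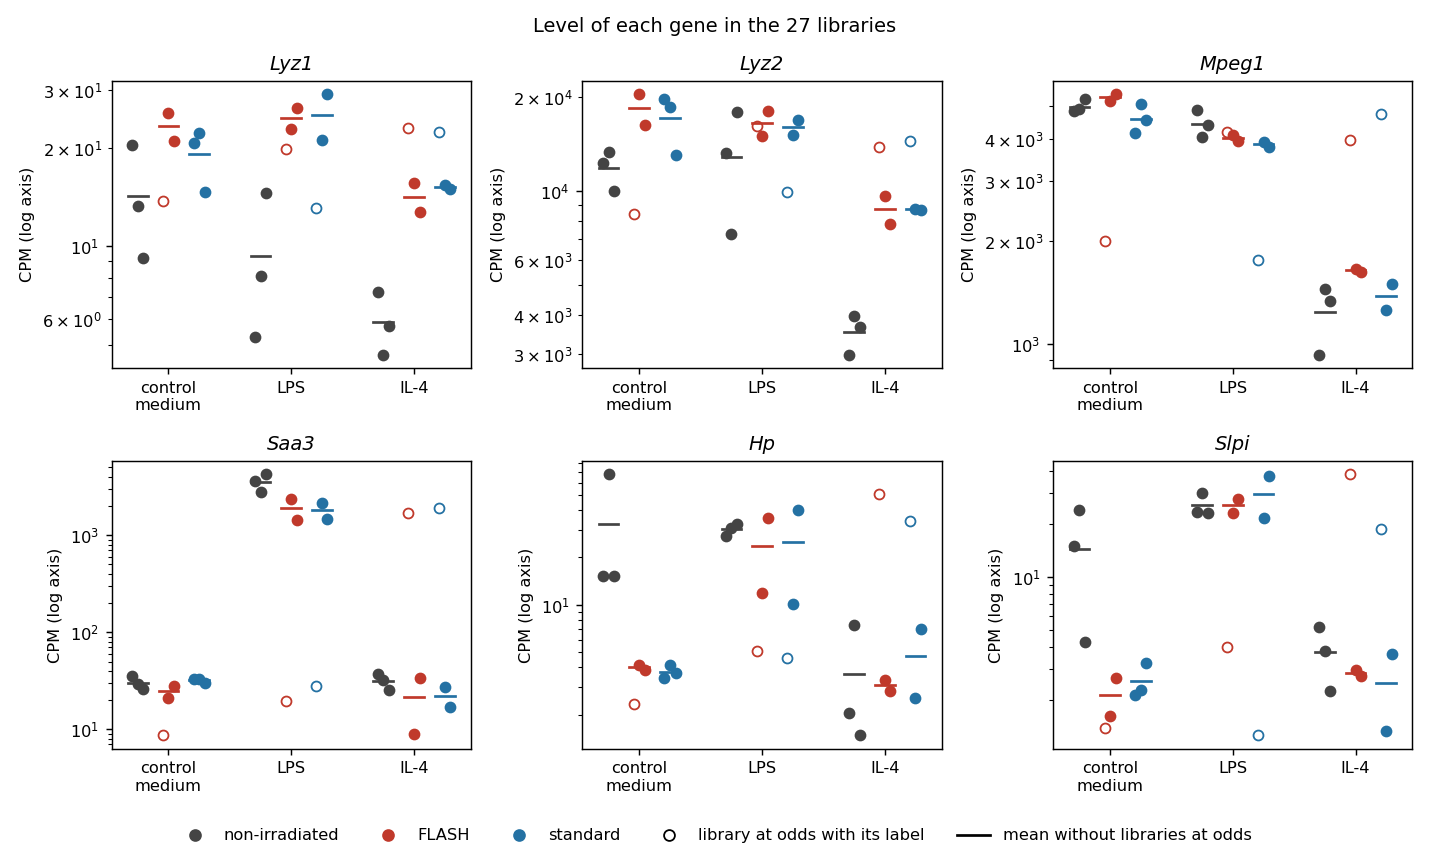
Level of each of the 6 genes in every library (vertical axis, CPM, logarithmic) by irradiation and labelled state (horizontal axis), with open symbols for the 5 libraries that did not match their state and a bar at each group's mean over the libraries that did. Saa3 stands at 2756 to 4235 CPM in non-irradiated M1 and at 25.2 to 36.9 CPM in the other non-irradiated groups.

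IL-4 was accompanied by lower levels of the phagocyte's constitutive effectors. Mpeg1 was at 927, 1454 and 1334 CPM in non-irradiated M2, below all 3 M0 libraries (4809 to 5215 CPM), and the M2 mean was 0.249 of the M0 mean. It fell by 2.03 on the log2 scale (SE 0.436, limma adjusted p = 0.00691), and in the 22 libraries the adjusted p was 1.68e-08. Lyz2 was at 2969, 3974 and 3664 CPM in M2, again below every M0 library, and fell by 1.74 (SE 0.337, limma adjusted p = 0.00368 with 27 and 5.63e-05 with 22 libraries). Both calls held on leaving out each of the 6 libraries compared in turn. The summed macrophage markers were lower in the same libraries, at 18296 to 19223 CPM in M2 against 29503 to 30930 CPM in M0, with 5 of the 18 called lower and none higher, and their part in these falls was not tested. Lyz1, at 7.25, 4.66 and 5.70 CPM in M2, also lay below M0 in every library and fell by 1.17 (SE 0.349, limma adjusted p = 0.0377 with 27 and 0.00857 with 22 libraries). That call was lost without M0 replicate 1 (log2 change -0.88, limma adjusted p = 0.162) or replicate 2 (-1.18, 0.0922), and without M2 replicate 1 (-1.32, 0.0582), 2 (-1.02, 0.137) or 3 (-1.16, 0.0794).

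Saa3 did not pass the test for IL-4 (log2 change 0.04, limma adjusted p = 0.995). Hp was at 2.03, 7.44 and 1.47 CPM in M2, below the 15.3 to 67.6 CPM of M0 in every library. Its log2 change was -2.92 (SE 0.996, limma adjusted p = 0.0674), and it passed the test in the 22 libraries (SE 0.622, adjusted p = 0.00238). Slpi was at 5.21, 3.79 and 2.25 CPM in M2, overlapping M0 through M0 replicate 3. The log2 change of Slpi was -1.59 (SE 1.06, limma adjusted p = 0.371), and the adjusted p was 0.0172 in the 22 libraries. Markers of the neutrophil lineage were lower in the same libraries, the sum of 23 of them being 745 to 1565 CPM in M0 and 130 to 403 CPM in M2, and so were 10 B-lineage markers, at 160 to 193 and 64.9 to 102 CPM. The sums of 12 monocyte markers (331 to 693 and 1683 to 3300 CPM) and 12 dendritic cell markers (256 to 594 and 2065 to 2654 CPM) were higher. Of these, Fn1 alone reached 3246 CPM and Itgax 2533 CPM in non-irradiated libraries. The part of any of these cells in the levels of Hp and Slpi was not tested. Thus 3 of 6 members were called lower in the 27 libraries, where 9.83% of all genes were called in either direction. Without the 5 libraries at odds it was 5 of 6, beside 26.0% of all genes. The calls of Hp and Slpi there rest on the smaller spread among libraries kept by their response genes.

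The LPS and IL-4 states could also be set against each other without irradiation, and 4 of 6 members were called higher with LPS, beside 30.5% of all genes called in either direction (42.3% in the 22 libraries, with 5 of 6 members). Lyz2 differed by 1.77 (limma adjusted p = 0.00105), Mpeg1 by 1.86 (0.00414) and Saa3 by 6.79 (0.0124), all without overlap between the groups. Hp differed by 3.18 (limma adjusted p = 0.0215), a call lost without M1 replicate 2 (log2 difference 3.16, adjusted p = 0.0537) or 3 (3.12, 0.0569) and without M2 replicate 1 (2.96, 0.0685) or 3 (2.78, 0.0721). Slpi did not overlap between the 2 states, and its difference was 2.67 (limma adjusted p = 0.0608, and 0.000133 in the 22 libraries). Lyz1 differed by 0.54 (limma adjusted p = 0.258).

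Both kinds of proton irradiation were followed by higher lysozyme levels. Lyz2 was at 8449, 20397 and 16290 CPM in FLASH M0, 16105, 14977 and 18043 CPM in FLASH M1, and 13773, 9643 and 7831 CPM in FLASH M2. After standard protons it was at 19647, 18479 and 12980 CPM in M0, 9908, 15110 and 16807 CPM in M1, and 14427, 8731 and 8675 CPM in M2. The IL-4 state separated the arms: all 6 irradiated M2 libraries were above the 3 non-irradiated ones (2969 to 3974 CPM). The means in M2 were 2.95 and 3.0 times the non-irradiated mean after FLASH and standard protons, or 2.47 and 2.46 times without the libraries at odds. In M1 the arms overlapped, since non-irradiated M1 alone spanned 7278 to 17854 CPM. The summed level of the 18 macrophage markers moved with Lyz2 in M2, from 18296 to 19223 CPM without irradiation to 27937 to 30927 CPM after FLASH and 26188 to 29331 CPM after standard protons. Averaged over states, 1 of the 18 was called higher and 3 lower in each arm. Their part in the lysozyme levels was not tested.

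Averaged over the 3 states with equal weight, Lyz2 rose by 0.75 after FLASH (SE 0.194, limma adjusted p = 0.0204) and by 0.75 after standard protons (limma adjusted p = 0.0192). In the 22 libraries the rises were 0.80 (0.0027) and 0.74 (0.00291). Lyz1 was at 13.8, 25.5 and 21.0 CPM in FLASH M0, 19.8, 22.9 and 26.5 CPM in FLASH M1, and 23, 15.6 and 12.8 CPM in FLASH M2. After standard protons Lyz1 was at 20.6, 22.1 and 14.7 CPM in M0, 13.1, 21.1 and 29.2 CPM in M1, and 22.3, 15.4 and 15.0 CPM in M2. Its lowest irradiated M2 library, at 12.8 CPM, was above the highest non-irradiated one, at 7.25 CPM, while in M0 the arms overlapped. For FLASH M0 the overlap came only from replicate 1, which was at odds with its label. Lyz1 rose by 1.10 after FLASH (SE 0.201, limma adjusted p = 0.00127) and by 1.04 after standard protons (0.00209), and by 1.14 (0.000829) and 1.08 (8e-04) in the 22 libraries. The Lyz1 and Lyz2 calls averaged over states held on leaving out each of the 18 libraries compared in turn. Both comparisons share the 9 non-irradiated libraries, and reads of the 2 lysozyme genes can be assigned to each other, so these 4 calls are not independent.

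Mpeg1 did not pass the test in either arm (log2 change 0.12, limma adjusted p = 0.837 after FLASH, and 0.03, 0.968 after standard protons). The estimates for Saa3 were -0.83 (limma adjusted p = 0.726) and -0.41 (0.874), for Hp -0.86 (0.422) and -0.80 (0.448), and for Slpi -0.78 (0.507) and -0.94 (0.393). None of these passed in the 22 libraries either, where Mpeg1 was at 0.13 (limma adjusted p = 0.358) and -0.05 (0.737), Saa3 at -0.68 (0.0527) and -0.47 (0.147), Hp at -1.0 (0.11) and -0.90 (0.119), and Slpi at -0.84 (0.0686) and -0.80 (0.0622). Of 6 members, 2 were called after FLASH, where 7.72% of all genes were called, and 2 after standard protons, beside 7.88% of all genes. Over the 22 libraries it was also 2 and 2, beside 14.3% and 17.9%.

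**Figure D3:**
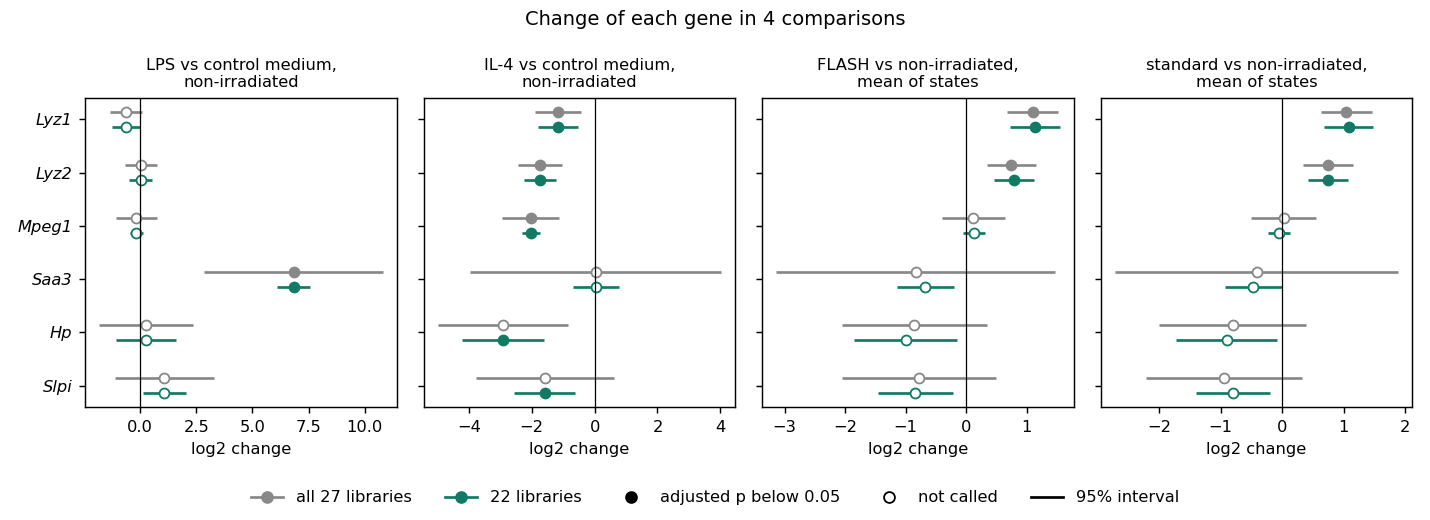
Log2 change of each gene with its 95% interval (horizontal axis, log2 of CPM + 0.5) in 4 comparisons, with all 27 libraries (grey) and the 22 (green), filled where the adjusted p is under 0.05. The intervals of Lyz1 and Lyz2 lie above 0 for both kinds of protons, and that of Lyz1 after FLASH spans 0.69 to 1.52.

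Within single states the lysozyme calls rested on few libraries. With all 27 libraries Lyz1 was called higher after FLASH in M1 (log2 change 1.36, limma adjusted p = 0.0393) and in M2 (1.45, 0.0433), and after standard protons in M2 (1.5, 0.0338). Lyz2 was called higher in M2 after FLASH (1.53, 0.0248) and after standard protons (1.55, 0.0219). The count was 1 of 6 members for FLASH M1 and 2 of 6 for each M2 comparison, where 2.53% (FLASH M1), 1.10% (FLASH M2) and 1.35% (standard M2) of all genes were called. In standard M1 none of the 6 was called, beside 2.60% of all genes. Over the 22 libraries the calls of Lyz1 in FLASH M1 (1.46, limma adjusted p = 0.0176) and standard M2 (1.32, 0.0384) and of Lyz2 in M2 (1.31, 0.0141 after FLASH and 1.31, 0.0146 after standard protons) held. Lyz1 in FLASH M2 did not pass there (1.22, limma adjusted p = 0.0585), and in standard M1 it passed with 22 but not with 27 libraries (1.47, 0.0174, against 1.17, 0.077). That made 1 of 6 members in FLASH M1 (4.84% of all genes), 1 in FLASH M2 (3.28%), 1 in standard M1 (5.52%) and 2 in standard M2 (3.38%).

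Leaving out 1 library at a time from the 27 ended most of these calls. The Lyz1 call in FLASH M1 was lost without non-irradiated M1 replicate 1 (log2 change 1.03, limma adjusted p = 0.218) or 2 (1.32, 0.123), and without FLASH M1 replicate 1 (1.46, 0.0815), 2 (1.36, 0.0831) or 3 (1.26, 0.11). For Lyz1 in M2, every omission ended the call: adjusted p was 0.0942, 0.152 and 0.101 without non-irradiated replicate 1, 2 and 3 and 0.218, 0.0766 and 0.0631 without FLASH replicate 1, 2 and 3. For standard protons the same omissions gave 0.0701, 0.121 and 0.0851, and 0.163, 0.0508 and 0.0692. The Lyz2 call in FLASH M2 was lost without non-irradiated M2 replicate 1 (limma adjusted p = 0.143), 2 (0.0579) or 3 (0.0638), and without FLASH M2 replicate 1 (0.149) or 2 (0.0529). In standard M2 it was lost without non-irradiated replicate 1 (0.13) or 3 (0.0551) and without standard replicate 1 (0.134). In M0, where 2.11% of all genes were called after FLASH and 2.02% after standard protons, neither lysozyme gene passed, with log2 changes from 0.26 to 0.51. Neither passed in the 22 libraries, beside 5.29% and 7.36% of all genes. The FLASH M0 libraries kept there lay above all non-irradiated M0 libraries, with means 1.63 (Lyz1) and 1.55 (Lyz2) times theirs. Standard M0 overlapped non-irradiated M0 for both genes.

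Hp and Slpi were lower in irradiated than in non-irradiated control medium in every library. Hp was at 2.33, 4.11 and 3.86 CPM in FLASH M0 and 3.41, 4.13 and 3.66 CPM in standard M0, against 15.3 to 67.6 CPM without irradiation. The mean was 0.105 of the non-irradiated one after FLASH and 0.114 after standard protons. Slpi was at 1.38, 1.62 and 2.67 CPM in FLASH M0 and 2.15, 2.29 and 3.27 CPM in standard M0, against 4.26 to 24.1 CPM, with means of 0.130 and 0.177 of the non-irradiated one.

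With all 27 libraries none of these differences passed the test: for Hp the log2 change was -2.74 after FLASH (limma adjusted p = 0.176) and -2.61 after standard protons (0.218), and for Slpi -2.39 (0.288) and -2.01 (0.4). Over the 22 libraries all 4 passed, Hp at -2.52 (limma adjusted p = 0.0451) and -2.61 (0.0171), and Slpi at -2.24 (0.0181) and -2.01 (0.0129). That is 2 of 6 members called in each arm, beside 5.29% of all genes after FLASH and 7.36% after standard protons. With replicates 2 and 3 only, all 4 calls were lost, at -2.87 (limma adjusted p = 0.0791) and -2.90 (0.0847) for Hp and -2.06 (0.0839) and -1.74 (0.16) for Slpi. No library of standard M0 or non-irradiated M0 was at odds with its label, so those log2 changes are the same in both fits and only the shared estimate of spread differs.

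**Figure D4:**
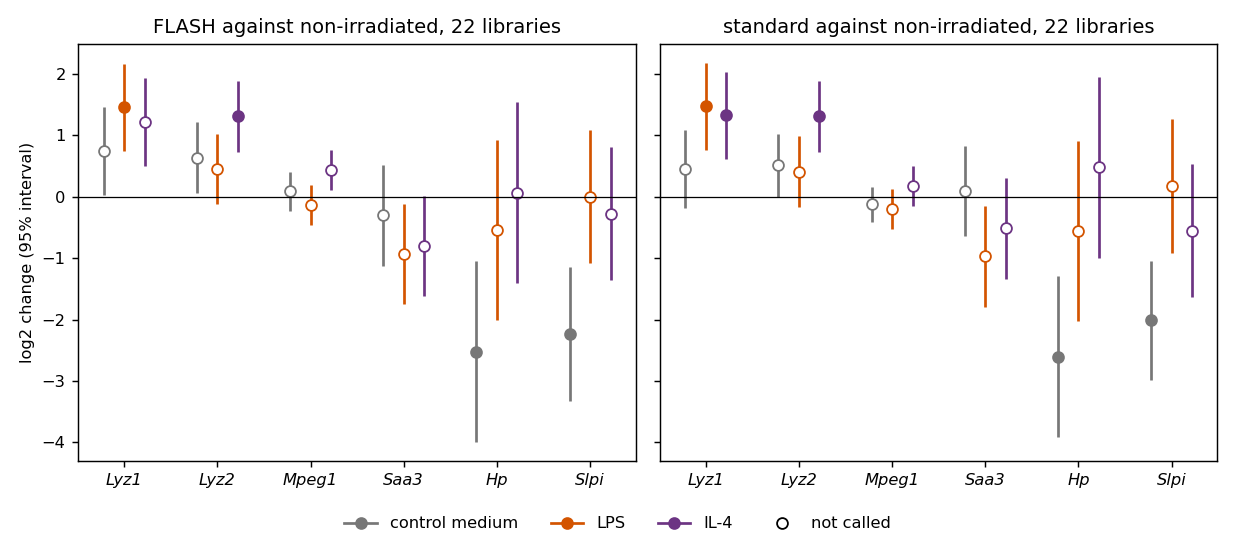
Log2 change of each gene with its 95% interval (vertical axis, log2 of CPM + 0.5) against non-irradiated cells of the same state, in the 22 libraries, after FLASH (left) and standard protons (right). Colours give the state and filled circles an adjusted p under 0.05: Hp lies at -2.52 and -2.61 and Slpi at -2.24 and -2.01 in control medium, and Lyz2 at 1.31 in both arms with IL-4.

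Markers of the neutrophil lineage moved with Hp and Slpi in M0. The summed level of 23 such markers was 745, 1565 and 1121 CPM in non-irradiated M0, 172, 134 and 160 CPM in FLASH M0 and 122, 155 and 123 CPM in standard M0. Within non-irradiated M0 the order differed for Slpi, whose lowest value, 4.26 CPM, came from the library with 1121 CPM of markers. Of the 23, 7 were under 1 CPM in all 3 FLASH M0 libraries and 9 in all 3 standard M0 libraries, against 1 in non-irradiated M0. Over all states the sum was 130 to 1565 CPM without irradiation, 96.3 to 460 CPM after FLASH and 99 to 431 CPM after standard protons. With LPS the sum and the 2 genes moved apart. In non-irradiated M1 the sum was 477 to 617 CPM, below every non-irradiated M0 library. Hp stood there at 27.4 to 32.8 CPM, within its M0 range, and Slpi at 23.1 to 30.1 CPM. In FLASH M1 replicates 2 and 3 the sum was 179 and 460 CPM, with Slpi at 23.1 and 27.9 and Hp at 11.9 and 35.6 CPM. In standard M1 replicates 2 and 3 it was 197 and 431 CPM, with Slpi at 21.8 and 37.7 and Hp at 10.2 and 40.3 CPM. Mpo, the myeloperoxidase of neutrophil granules, had a median of 30.4 CPM without irradiation, 0.788 CPM after FLASH and 0.744 CPM after standard protons. Ctsg, cathepsin G, was at 0.966 to 7.60 CPM without irradiation, at 0 to 0.686 CPM after FLASH and at 0 to 0.0416 CPM after standard protons. Not every marker moved so far: the medians of Mmp8 were 41.9, 33.6 and 34.9 CPM, and those of Mmp9 were higher after irradiation (31.8, 53.3 and 43.2 CPM). Averaged over states, 15 of the 22 markers tested were called lower in each arm and none higher. In M0 the summed level of 10 B-lineage markers also differed (160 to 193 CPM without irradiation, 69.2 to 93.1 CPM after FLASH and 56.2 to 64.3 CPM after standard protons), as did that of 9 mast cell and basophil markers (7.40 to 29.4, 1.84 to 3.04 and 2.56 to 4.19 CPM). The B-lineage list did not move as a whole. Over all states Ighm had medians of 85.4, 12.7 and 5.91 CPM in the same order, while Cd22 had medians of 42.4, 59.8 and 53.4 CPM. The sum of 12 monocyte markers was 331 to 693 CPM without irradiation, 110 to 151 CPM in the 2 FLASH M0 libraries that matched their label and 112 to 239 CPM in standard M0. The sum of the 18 macrophage markers was higher, at 29503 to 30930, 42754 to 44788 and 41733 to 43087 CPM in the same libraries, but its genes did not move together. Over all states the lysosomal gene Ctsd had medians of 11578, 19809 and 18268 CPM in the 3 arms. The medians fell for Csf1r (1638, 1127 and 1076 CPM) and C1qb (1434, 703 and 733 CPM). Averaged over states, more of the 18 were called lower than higher in each arm. The part of these cells in the levels of Hp and Slpi was not tested, and in bulk RNA fewer cells of a type and less RNA per cell cannot be told apart.

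**Figure D5:**
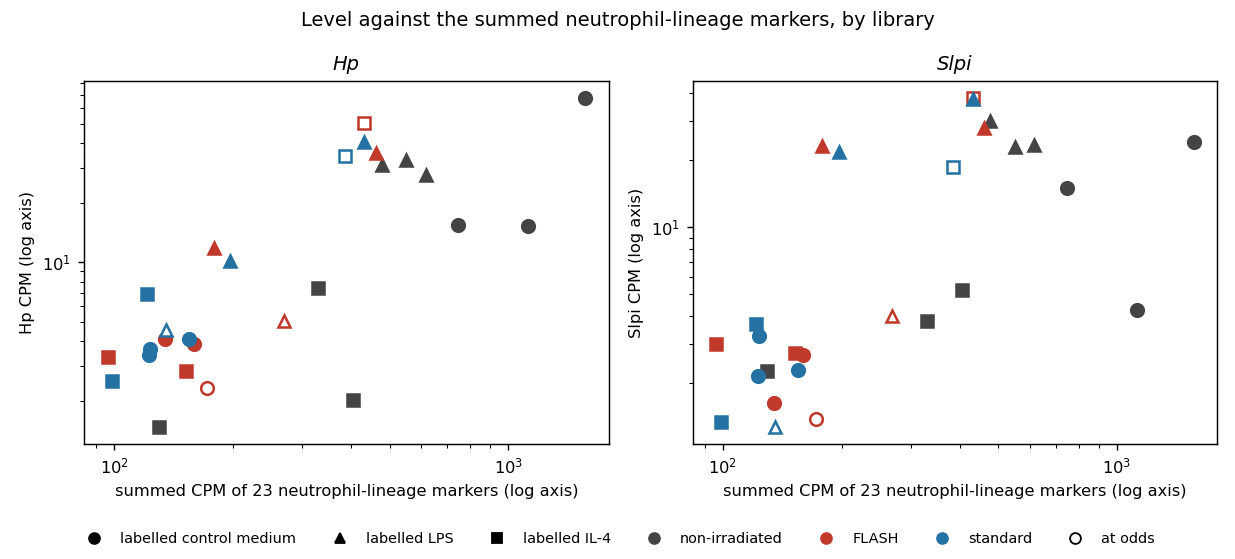
Level of Hp and Slpi (vertical axes, CPM, logarithmic) against the summed level of 23 neutrophil-lineage markers (horizontal axis, CPM, logarithmic) in each of the 27 libraries, coloured by irradiation and shaped by labelled state, with open symbols for the 5 libraries at odds. The non-irradiated M0 libraries, at 745 to 1565 CPM of markers, lie to the right of all irradiated M0 libraries, at 122 to 172 CPM.

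In the irradiated M1 libraries that matched their label, Slpi lay near and Saa3 below the non-irradiated M1 levels, and neither difference passed the test. Slpi was at 23.1 and 27.9 CPM after FLASH and 21.8 and 37.7 CPM after standard protons, against 23.1 to 30.1 CPM without irradiation (log2 change 0.00, limma adjusted p = 1, and 0.17, 0.895, in the 22 libraries). Hp was at 11.9 and 35.6 CPM after FLASH and 10.2 and 40.3 CPM after standard protons, on both sides of the non-irradiated 27.4 to 32.8 CPM. Saa3 was at 2337 and 1432 CPM after FLASH and 2169 and 1470 CPM after standard protons, all under the lowest non-irradiated M1 library, at 2756 CPM. The Saa3 means were 0.531 and 0.513 of the non-irradiated M1 mean. That difference did not pass the test in the 22 libraries (log2 change -0.93, limma adjusted p = 0.196 after FLASH, and -0.97, 0.162 after standard protons) or in all 27 (-3.10, 0.467, and -2.96, 0.433).

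The libraries at odds with their labels carried the other levels of these 3 genes. The libraries labelled FLASH M1 and standard M1 replicate 1 held 19.7 and 28.1 CPM of Saa3, in the range of M0 and M2. Those labelled FLASH M2 and standard M2 replicate 1 held 1681 and 1890 CPM, where the other M2 libraries of those arms held 9.04 to 33.8 CPM. In FLASH M2 replicate 1, Hp stood at 50.4 and Slpi at 38.3 CPM, against 2.83 to 3.33 and 2.74 to 2.98 CPM in the others of its group. In standard M2 replicate 1, Hp was at 34.3 and Slpi at 18.6 CPM, against 2.54 to 6.96 and 1.33 to 3.68 CPM. Mpeg1 followed the same split, with 3965 and 4738 CPM in these libraries and 1261 to 1664 CPM in the 4 other irradiated M2 libraries.

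The response to LPS within an irradiated arm was called in the 22 but not the 27 libraries. The 22 were kept by their levels of LPS and IL-4 response genes, so a response to LPS among them was partly set in advance. The adjusted p values from the 22 are therefore not an independent test of that response. After FLASH, M1 against M0, Saa3 rose by 6.2 (limma adjusted p = 6.47e-08), Slpi by 3.32 (0.000332) and Hp by 2.24 (0.0412), which is 3 of 6 members beside 24.6% of all genes. After standard protons Saa3 rose by 5.78 (limma adjusted p = 4.26e-08), Slpi by 3.27 (0.000168) and Hp by 2.30 (0.0234), 3 of 6 beside 23.4%. With replicates 2 and 3 only, the Hp call was lost in both arms (2.24, limma adjusted p = 0.0698, and 2.25, 0.0786), and Mpeg1 was called lower after FLASH (-0.39, 0.0312). With all 27 libraries no gene of the 13297 was called by limma in either comparison (0%), while 505 were called after FLASH on leaving out FLASH M1 replicate 1 alone. The Saa3 estimates from all 27 were 4.52 (adjusted p = 0.428) and 3.79 (0.348). In these arms Slpi and Hp started from a lower M0 level than in non-irradiated cells. The test of the difference between arms in the LPS response did not pass for Slpi in the 22 libraries (2.24, limma adjusted p = 0.175 for FLASH, and 2.19, 0.169 for standard protons) or for any other member. Of all genes, 0.384% passed that test in each arm with 22 libraries, and 0.120% (FLASH) and 0.0902% (standard) with 27.

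With IL-4, Mpeg1 and Lyz2 fell in the irradiated arms in the 22 libraries. Those libraries were kept by their response genes, so the adjusted p values from the 22 are not an independent test of a response to IL-4. Mpeg1 was at 1664 and 1631 CPM in FLASH M2 and at 1261 and 1497 CPM in standard M2. It fell by 1.68 against FLASH M0 (limma adjusted p = 4.24e-06) and by 1.73 against standard M0 (8.2e-07). Lyz2 fell by 1.07 (limma adjusted p = 0.0276) and 0.95 (0.0282). These were 2 of 6 members in each arm, beside 12.0% of all genes after FLASH and 14.3% after standard protons. With replicates 2 and 3 only, the Lyz2 call was lost in both arms (-1.07, limma adjusted p = 0.0531, and -0.83, 0.125). With all 27 libraries no member was called, beside 0% and 0.474% of all genes. The difference between arms in the IL-4 response passed for no member in either set of libraries. Of all genes 0% passed it, except 0.0226% for standard protons in the 22 libraries.

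No difference between FLASH and standard protons was detected in these genes. Averaged over states, the FLASH minus standard difference was 0.06 for Lyz1 (95% interval -0.36 to 0.48), 0.10 for Mpeg1 (-0.43 to 0.62), -0.42 for Saa3 (-2.72 to 1.88), -0.06 for Hp (-1.25 to 1.14) and 0.16 for Slpi (-1.11 to 1.43), each with a limma adjusted p of 1. For Lyz2 the interval was -0.41 to 0.40. The 22 libraries gave narrower intervals, such as -0.02 to 0.38 for Mpeg1 and -0.72 to 0.29 for Saa3, and no adjusted p under 0.681. None of the 13297 genes was called by limma in this comparison (0%) with 27 or 22 libraries, while 393 and 1071 had an unadjusted p under 0.05. The intervals leave room for differences, widest for Saa3.

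Other genes of the same functions were described from lists. Some of them are also on the LPS or IL-4 response lists by which the 22 libraries were kept. These are Nos2, Irg1, Chil3 and Rnase2a among the effectors, Cfb among the acute-phase genes, and Il6, Il1b and Tnf among the cytokines. List counts from the 22 libraries for LPS and IL-4 were therefore partly set in advance. Of 38 other antimicrobial effectors tested, 9 were called higher and 4 lower with LPS (median log2 change -0.375, against -0.013 for all genes), where 17.4% of all genes were called. The 22 libraries gave 12 higher and 11 lower, beside 34.7%. Gzmb, a serine protease of cytotoxic granules, rose by 5.42 (limma adjusted p = 3.31e-07) and Gsdmd, the pore former of pyroptosis, by 1.33 (0.00755), while Epx, eosinophil peroxidase, fell by 1.71 (0.00698) and Prg2, eosinophil major basic protein, by 1.91 (0.0244). With IL-4, 2 rose and 5 fell (median -0.793) beside 9.83% of all genes, and 5 rose and 13 fell in the 22 libraries beside 26.0%. Among them were Rnase2a, a ribonuclease of the eosinophil-associated family, up by 7.01 (limma adjusted p = 0.0136), and Ltf, the iron-binding lactoferrin, down (-2.98, 0.0148).

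Irradiation was followed by lower levels in many of these effectors. After FLASH 1 rose and 15 fell (median -0.602, against -0.005 for all genes), and after standard protons 1 rose and 16 fell (median -0.707), where 7.72% and 7.88% of all genes were called. The 22 libraries gave 3 that rose and 20 that fell after FLASH and 4 and 22 after standard protons, beside 14.3% and 17.9%. Of the 38 effectors, 10 are also on the neutrophil list, and 9 of these were among the genes that fell in each arm with 27 libraries. The others gave 6 that fell after FLASH and 7 after standard protons. Gzmb fell by 2.89 (limma adjusted p = 1.26e-07) and Ctsg by 2.32 (2.17e-06) after FLASH, and Ltf fell by 4.22 (1.21e-06) after standard protons. The gene that rose in both arms was Hist1h2bc, a histone H2B gene, by 0.92 (limma adjusted p = 4.23e-05) and 0.95 (2.87e-05).

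Of 24 other acute-phase genes, 4 rose and 2 fell with LPS (median 0.576), beside 17.4% of all genes called, and 8 rose and 3 fell in the 22 libraries, beside 34.7%. The complement genes C4b (2.91, limma adjusted p = 0.00065) and C1ra (1.62, 0.00844) rose, and Trf, the iron carrier transferrin (-3.63, 0.0195), and Mt1, a metallothionein (-1.45, 0.0495), fell. After irradiation none of the 24 rose and 2 fell in each arm with 27 libraries, a share near the 7.72% and 7.88% of all genes called. Ptx3, a pentraxin that binds microbes, fell by 1.34 after FLASH (limma adjusted p = 0.0012) and by 1.5 after standard protons (0.000359). Serping1, the C1 inhibitor, fell by 1.14 after FLASH (limma adjusted p = 0.00902), and C1s1 by 1.22 after standard protons (0.00311). Over the 22 libraries 9 and 8 of the 24 fell and again none rose, beside 14.3% and 17.9% of all genes. The list medians in the 27 libraries were -0.469 and -0.564.

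Upstream, 30 cytokines, receptors and transcription factors that act on such genes gave 5 higher and 1 lower with LPS, a share near the 17.4% of all genes called. The 22 libraries gave 15 higher and 2 lower, beside 34.7%. Cebpb, the C/EBP factor of acute-phase genes, rose by 2.34 (limma adjusted p = 0.00128) and Irf1, an interferon-response factor, by 2.13 (0.0122), while Cebpa fell by 1.89 (0.0301). After irradiation 3 of the 30 fell in each arm and none rose with 27 libraries, near the 7.72% and 7.88% of all genes. The 22 libraries gave 8 that fell after FLASH, and 1 that rose and 10 that fell after standard protons, beside 14.3% and 17.9%. Il6ra, the IL-6 receptor chain, fell by 0.79 after FLASH (limma adjusted p = 0.00435) and by 1.07 after standard protons (0.000199). Of 19 receptors and partners, the member Hp among them, 1 rose and 3 fell with LPS, a share near the 17.4% of all genes called. In the 22 libraries 6 rose and 6 fell, beside 34.7%. After irradiation 1 rose and 3 fell in each arm, beside 7.72% and 7.88% of all genes, and all 3 that fell are on the neutrophil list. The 22 libraries gave 3 and 3 after FLASH and 3 and 4 after standard protons, beside 14.3% and 17.9%. Cd163, the haemoglobin-haptoglobin scavenger receptor, fell by 3.79 with LPS (limma adjusted p = 0.00379). Hmox1, haem oxygenase, which degrades haem, rose by 1.08 after FLASH (6.56e-06) and by 1.23 after standard protons (1.2e-06, limma adjusted p). Prtn3, a serine protease of neutrophil granules, fell by 2.80 (2.54e-05) and 2.72 (3.56e-05), and is on the neutrophil list too.

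As a description over the 27 libraries, which share the states and the same 5 doubted labels, the members' profiles were most like those of other genes by Pearson r of log2(CPM + 0.5). Saa3 was closest to Ccl5, Cfb and Irg1 (each r 0.993), which are all on the LPS response scale. Slpi was closest to Pilrb1 (0.952), Spata13 (0.942) and Vasp (0.939). Hp was closest to Tagap (0.919), Mreg (0.916) and Lcn2 (0.912). Mpeg1 was closest to Fam134b, Cln6 and Maf (each 0.956), Lyz2 to Plscr4 (0.945), Tmed8 (0.938) and Scarb2 (0.919), and Lyz1 to Scoc (0.867), Slc39a8 (0.854) and Pgm2l1 (0.825). Among the members, r was 0.895 for Hp and Slpi, 0.855 for Saa3 and Slpi, 0.812 for Lyz2 and Mpeg1, and 0.786 for Lyz1 and Lyz2.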

How the data were processed

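RNA from 27 libraries (9 groups of 3) was measured by sequencing. The deposited table holds a signal for 19070 entries, CPM-like on a linear scale, made by the authors with further scaling (column sums 929338 to 1072650); 1 entry with no gene symbol (0.00480 to 0.00799% of the signal) was left out. Per the submitters' processing notes, kallisto 0.46.1, R 4.0.5 and edgeR 3.36.0 were used; the notes name a human build, GRCh38, so no coordinates were taken from it. The values are treated as CPM, as planned. Read totals were estimated from the steps between low values, of which 87.0 to 93.7% (values under 20 reads, whole within 0.01) fitted whole reads; the table as a whole did not, so no count test was run.

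Tests used limma 3.58.1 (R 4.3.3) on log2(CPM + 0.5), with 9 group means, intensity trend, robust moderation and Benjamini-Hochberg adjustment over the 13297 genes that reached 1 CPM in 3 or more libraries; calls are at adjusted p under 0.05. 23 comparisons were fitted, with no replicate block. A library was at odds with its label where it lay past 0.5 on a response scale not named by the label or short of 0.5 on the one named. The text names all 6 members, up to 2 called genes per direction with the smallest p for each other list, and the 3 genes most like each member. The members and lists were chosen with earlier results of these data known. On simulated data for the FLASH comparison over 13297 genes, 200 planted changes were recovered to 100% at log2 changes of 1 and 2, with 13 false calls. Apart from those changes, all simulated libraries were drawn from the non-irradiated M0 means, with the same spread setting for every gene. They held no states and no libraries at odds, so the recovery does not tell how often such changes pass in the real data. Each replicate number carries 1 label code in all groups, of unstated meaning. In the 4 groups in which every library matched its label, the deviations of 18 same-numbered pairs from their group means correlated at -0.204 to 0.0965, so the fits were not paired; an effect of the code on single genes was looked at only through the replicate block.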

Additional observations from a re-analysis of the deposited data

How the results depend on the processing

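The Lyz1 and Lyz2 calls averaged over states, in both arms, held in every alternative run: pseudocounts of 0.1 and 1, no filter or 5 CPM, median-of-ratios scaling, limma without trend or robust moderation, only the compared groups, the replicate block, each library left out, replicates 2 and 3 only, and without the 5 libraries at odds with their labels. Leaving out those 5 moved the number of genes called with LPS from 2315 to 4610, with IL-4 from 1307 to 3455, after FLASH from 1027 to 1902 and after standard protons from 1048 to 2382, and members called with IL-4 from 3 to 5. It also moved genes called in M0, M1 and M2 from 281, 336 and 146 to 704, 644 and 436 after FLASH, and from 269, 346 and 180 to 978, 734 and 449 after standard protons. Within the irradiated arms it moved LPS calls from 0 to 3268 (FLASH) and 3111 (standard), and IL-4 calls from 0 to 1592 and from 63 to 1903. The libraries kept there were chosen by their LPS and IL-4 response genes. Calls of the test between arms moved from 16 and 12 to 51 and 51 for LPS (FLASH, standard) and from 0 to 3 for IL-4 with standard protons. Fitting only the compared groups gave 3897 genes with LPS, and replicates 2 and 3 only gave 2434 with IL-4. In replicates 2 and 3 only, the Mpeg1 change with LPS after FLASH reversed to -0.39 (limma adjusted p = 0.0312) from 0.09. The same setting lost Lyz1 in FLASH M1 (limma adjusted p = 0.0504) and Lyz2 in M2 after FLASH (0.105) and standard protons (0.101). Fitting only the compared groups lost all 5 single-state lysozyme calls, Lyz1 in FLASH M1 (0.164), FLASH M2 (0.307) and standard M2 (0.289) and Lyz2 in FLASH M2 (0.307) and standard M2 (0.291), and called Hp in standard M0 (0.045).

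Leaving out 1 library at a time gave 907 to 2004 genes with LPS, 582 to 958 with IL-4 and 0 to 11 for FLASH against standard (11 without standard M2 replicate 1, 3 without FLASH M0 replicate 2), and 0 to 1 members with LPS. After FLASH it gave 0 to 505 genes with LPS (505 without FLASH M1 replicate 1) and 0 to 87 with IL-4 (87 without FLASH M0 replicate 1). With the replicate block, 5 calls were lost: Lyz1 with IL-4 (limma adjusted p = 0.063), in FLASH M1 (0.075) and M2 (0.0874) and in standard M2 (0.071), and Lyz2 in FLASH M2 (0.057). Libraries of the same number were not alike: the deviations of 108 same-numbered pairs had a median correlation of -0.1. For 18 such pairs in the 4 groups without a library at odds it was -0.0652. In both sets 0 libraries were closest to their own number. The 216 pairs of other numbers had a median of 0.0485, with 71 over 0.1, against 9 of the 108. In the 4 groups 36 such pairs had a median of 0.03, with 7 over 0.1, against 0 of the 18. What lay behind the likeness across numbers was not tested. Without a filter, Lyz1 lost its calls with IL-4 (0.0508) and in FLASH M2 (0.0573). The block also gave 192 and 75 genes in FLASH M1 and M2 and 171, 191 and 95 in standard M0, M1 and M2. A 5 CPM filter gave 161 and 223 in FLASH M0 and M1 and 126 for IL-4 after standard protons. Replicates 2 and 3 only gave 448 in FLASH M0, 118 in standard M2, 3037 and 2456 with LPS, and 1370 and 1455 with IL-4, after FLASH and standard protons. Where a level was as low as the 1.26 CPM of Slpi in standard M1 replicate 1, few reads lay behind it.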

Other observations

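The balance of the paired lysozyme genes, as Lyz1 per kilobase in percent of Lyz2 per kilobase, was 0.0417 to 0.254% in the 9 non-irradiated libraries (median 0.117%), 0.128 to 0.174% after FLASH (median 0.159%) and 0.109 to 0.184% after standard protons (median 0.145%). Pooled over states, the non-irradiated range spans both irradiated ranges, its top coming from M2 replicate 1. By state, the arms overlapped in M0 and M2 but not in M1. There the non-irradiated libraries were at 0.0417, 0.117 and 0.0852%. FLASH M1 was at 0.128, 0.159 and 0.153% and standard M1 at 0.137, 0.145 and 0.181%, replicate 1 of each being at odds with its label. How reads common to both genes were shared between them was not tested.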
